A study of Mus musculus with 13 samples.

Results

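A set of genes that adipocytes use to secrete hormones and to store and release fat was followed in the aortas of AngII-infused ApoE-/- mice. The 10 members were listed by gene name and taken from the 54532 genes of the count table. They are the secreted factors Adipoq, Lep, Retn and Cfd, and the lipid droplet and lipolysis genes Plin1, Cidec, Fabp4, Lipe, Pnpla2 and Dgat2. All 10 were kept by the filter on low counts, together with 15801 other genes.

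White and brown adipocytes keep triglyceride in lipid droplets that are coated by perilipins. Fat enters through fatty acid uptake and esterification, and leaves when catecholamines set off a chain of lipases. Adipocytes around the aorta form the perivascular fat, which in the mouse thoracic aorta resembles brown fat and in the abdominal aorta is closer to white fat. The same cells release adipokines, which are hormones that act on the vessel wall, the brain and the liver.

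All 13 mice lacked ApoE and received AngII from a subcutaneous pump. They were 10 weeks old at the start of infusion and were followed for up to 28 days. Ad-sham mice (n = 6) were given an adenovirus without the Fam3a insert, and Ad-FAM3A mice (n = 7) were given the same vector carrying mouse Fam3a behind the EF1A promoter, by weekly injection into the tail vein. Systemic injection reaches many organs. Whole aortas were harvested, and the paper names the sequenced material as aneurysm tissue, aortic tissue or aortas. How much of each aorta was sequenced is therefore not certain. The sex of each sequenced mouse was not given in the sources used here. In bulk tissue, fewer adipocytes, less RNA per adipocyte and a change in other cells that may make these transcripts cannot be told apart.

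The 13 libraries held 14481179 to 19797407 counts. CPM below is counts per 1000000 counts of the library after trimmed mean (TMM) scaling. Fam3a, the delivered gene, averaged 24.4 CPM (SD 4.27) over the controls and 24.0 CPM (SD 4.64) over the Ad-FAM3A aortas, a log2 fold change of -0.03 (SE 0.16, edgeR adjusted p = 0.971), and no excess of it was detected. All 8 smooth muscle markers were detected in each aorta, with Acta2, the smooth muscle actin, between 1370 and 10200 CPM. All 9 general adipocyte markers were also detected in each aorta. Markers of other tissues were detected unevenly. The summed level of 6 cardiac markers was 7.13 to 283 CPM, with Ad-sham1, Ad-FAM3A6 and Ad-sham3 highest. Lymphocyte transcripts were concentrated in Ad-FAM3A6 and Ad-FAM3A7, where the 6 markers summed to 515 and 177 CPM, while the other 11 aortas held 8.11 to 43.4 CPM. The 6 kidney markers summed to 609 CPM in Ad-sham6, 336 in Ad-FAM3A3, 201 in Ad-sham3 and 138 in Ad-sham5, and to 0.485 to 36.1 CPM in the other 9 aortas. The 6 sympathetic neuron markers summed to 54.5 to 2294 CPM, with Ad-FAM3A3, Ad-sham5 and Ad-sham3 highest. Ad-FAM3A3 thus held the most sympathetic and the second most kidney transcripts of the 13 aortas.

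Promoter sequence is shown for the 3 genes whose start region held a match to TTGCNNAA, a C/EBP type motif, because the members moved together across the aortas. RefSeq windows on GRCm38.p6 were found for 8 of the 10 members, in 10 windows of 250 bases before a start site. Fabp4 and Dgat2 had no entry. Both strands were searched. The match is in capitals, each sequence runs 5′ to 3′ on the strand of its gene, and bases that GENCODE M21 places in an exon are left out.

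Lep, chr6:29059971-29060219, plus strand, just before the first exon:
Lep: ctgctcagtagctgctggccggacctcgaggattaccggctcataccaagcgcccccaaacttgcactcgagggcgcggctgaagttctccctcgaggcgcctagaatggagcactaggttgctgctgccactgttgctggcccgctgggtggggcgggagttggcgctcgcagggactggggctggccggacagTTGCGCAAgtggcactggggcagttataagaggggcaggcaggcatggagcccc
Cidec, chr6:113434765-113435014, minus strand, intronic, before the start of a shorter transcript:
Cidec: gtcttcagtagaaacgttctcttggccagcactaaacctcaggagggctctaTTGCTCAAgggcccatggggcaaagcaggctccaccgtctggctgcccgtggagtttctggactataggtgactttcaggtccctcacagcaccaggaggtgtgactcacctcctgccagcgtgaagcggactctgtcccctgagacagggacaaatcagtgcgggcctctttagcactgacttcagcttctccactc
Plin1, chr7:79732904-79733026, minus strand, before the first exon:
Plin1: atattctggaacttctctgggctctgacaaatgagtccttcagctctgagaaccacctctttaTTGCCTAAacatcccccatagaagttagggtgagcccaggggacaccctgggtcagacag

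In Lep the match lay 55 to 48 bases before the start, and its letters read the same on both strands. TTGCNNAA was present in 3 of the 10 member windows and in 9.56% of 32851 windows over all genes. A second Plin1 match, 58 to 51 bases before the RefSeq start, fell in bases that GENCODE counts as exon. AGGTCA, the nuclear receptor element, was in none of the 10 member windows and in 4607 of all 32851 windows. A pair of AGGTCA elements with 1 base between them, allowing 1 letter not to match, was in none of the member windows and in 0.484% of all. TATAAA was in none of the member windows and in 12.4% of all. These matches describe letters in a short window and were not tested against expression.

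The levels of the 10 genes spanned a wide range. CPM per kilobase of the gene length listed by the authors, averaged over 13 aortas, put Cfd, the serine protease adipsin, first at 2410 ± 1350 (SD). Fabp4, a fatty acid carrier of adipocytes, followed at 570 ± 321, and then Pnpla2, the triglyceride lipase ATGL, at 385 ± 151. Lep, the satiety hormone leptin, was last at 4.51 ± 6.19. Neighbours in the order from Fabp4 through Pnpla2, Adipoq, Cidec, Dgat2, Retn and Plin1 to Lipe were within the larger of their SDs. Cfd stood above Fabp4 and Lipe stood above Lep by more than that. The order at the top depended on the length used. The listed Fabp4 length of 4489 bases covers its introns, and with the longest spliced coding transcript (896 bases) Fabp4 came to 2860 ± 1610, above Cfd at 2410 ± 1350 and within their spread. Together the 10 genes took 0.587% to 1.73% of all counts in Ad-sham and 0.363% to 1.10% in Ad-FAM3A.

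**Figure D1:**
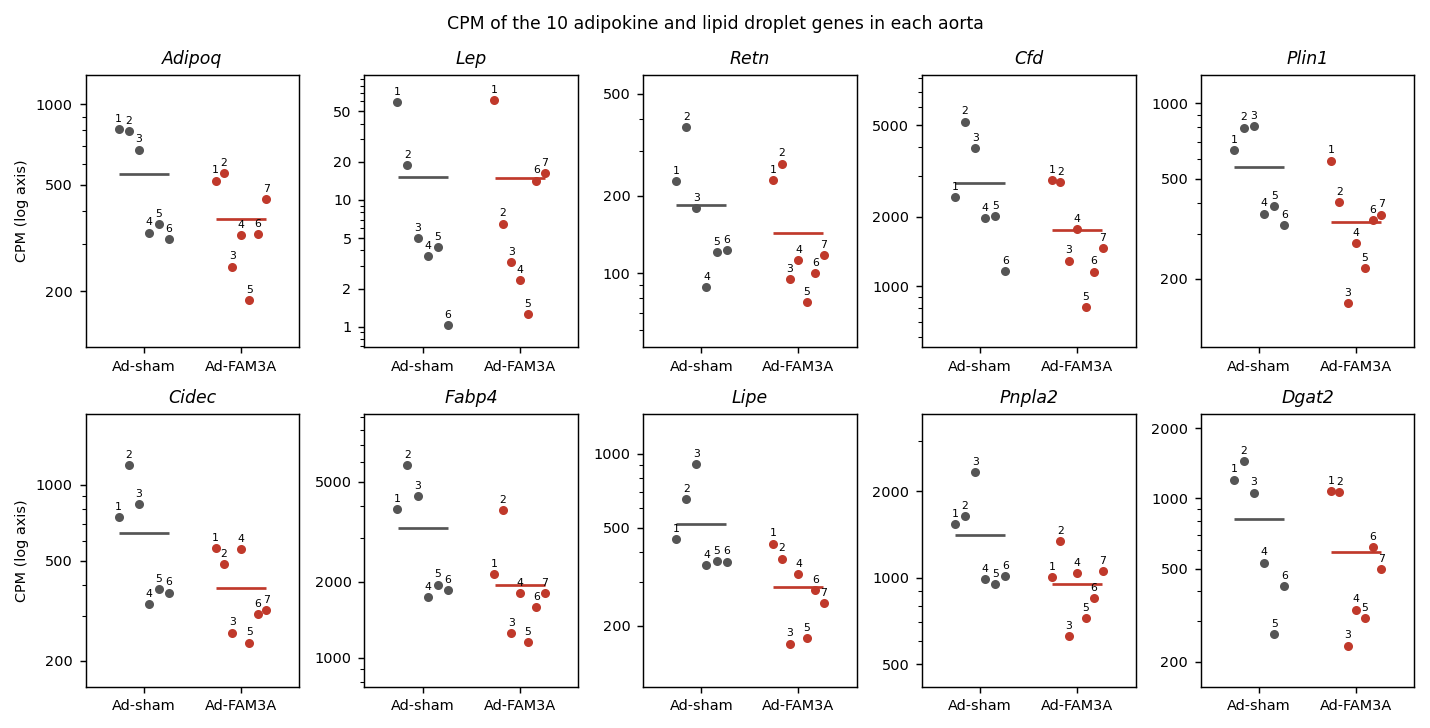
CPM of each of the 10 genes (vertical log axis) in 6 Ad-sham and 7 Ad-FAM3A aortas; points are aortas numbered by replicate and the bar is the group mean. In every panel Ad-sham1, Ad-sham2 and Ad-sham3 lie above Ad-sham4, Ad-sham5 and Ad-sham6, and the groups overlap.

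The comparison asked whether Ad-FAM3A changed these genes against Ad-sham. All 10 fitted log2 fold changes were below 0 (9 when scaled by library totals, where Lep was at 0.08), with a median of -0.63, against 0.00319 over the 15811 genes tested, of which 49.6% were below 0. With the quasi-likelihood test of edgeR, 0 of the 10 members had an adjusted p under 0.05, and the test called 0% of all genes. At an unadjusted p under 0.05, 4 of the 10 were lower (Lipe, Plin1, Pnpla2 and Cidec), where 2.93% of all genes were lower and 2.98% higher (5.91% in either direction). DESeq2, edgeR's exact test and limma-voom also called 0 members at an adjusted p of 0.05, and 5, 5 and 3 at an unadjusted p. The count at an unadjusted p was 1 without Ad-sham1, Ad-sham2, Ad-sham3, Ad-FAM3A3, Ad-FAM3A5, Ad-FAM3A6 or Ad-FAM3A7, left out in turn, and 2 without Ad-FAM3A4. It was also 1 without Ad-FAM3A6 and Ad-FAM3A7 together, the aortas with the most lymphocyte transcripts. The members share cells and libraries and were listed with earlier results of these data known, so they are not independent tests and the share of all genes below 0 is given as a description. With the replicate number as a block, edgeR gave an unadjusted p of 0.0382 for Lipe, 0.0385 for Adipoq and 0.0439 for Plin1, against 0.0849 for Cidec and 0.0926 for Pnpla2, and no adjusted p under 0.05.

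Lipe, Fabp4, Cidec and Plin1 had the largest fitted differences. Lipe encodes hormone-sensitive lipase, which cleaves diacylglycerol (ENSMUSG00000003123, GRCm38 chr7:25379527-25398710, minus strand). It ranged from 353 through a median of 407 to 910 CPM in Ad-sham and from 169 through 280 to 432 CPM in Ad-FAM3A. In 5 of 7 Ad-FAM3A aortas the level was below every Ad-sham aorta, and Ad-FAM3A1 and Ad-FAM3A2 overlapped the controls. The log2 fold change was -0.85 (SE 0.285, unadjusted p = 0.00983, adjusted p = 0.810), and the exact permutation test over all 1716 splits of the aortas gave p = 0.0157, two-sided and not adjusted over the 10 members. An antisense gene, 4732471J01Rik, overlaps Lipe and held 444 counts over all libraries, against at least 2396 for Lipe in each aorta.

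Pnpla2, which removes the first fatty acid from triglyceride (ENSMUSG00000025509, chr7:141455198-141460743, plus strand), ranged from 950 through 1276 to 2332 CPM in Ad-sham and from 625 through 1006 to 1343 CPM in Ad-FAM3A. The 3 lowest aortas were Ad-FAM3A3, Ad-FAM3A5 and Ad-FAM3A6, and the other 4 lay inside the range of the controls. Its log2 fold change was -0.57 (SE 0.255, unadjusted p = 0.0410, adjusted p = 0.810, edgeR), with an exact permutation p of 0.0524, and it was -0.37 (unadjusted p = 0.136, edgeR) without Ad-sham3. The spread within groups was the smallest of the 10 members, at an SD of 0.447 on the log2 scale, near the median of 0.459 over all genes tested.

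Plin1, the perilipin that gates access of lipases to the droplet (ENSMUSG00000030546, chr7:79720218-79732903, minus strand), ranged from 327 through 521 to 812 CPM in Ad-sham and from 160 through 341 to 590 CPM in Ad-FAM3A. Only Ad-FAM3A1 was above the Ad-sham median, and 3 Ad-FAM3A aortas were below the lowest control. Plin1 had a log2 fold change of -0.73 (SE 0.312, unadjusted p = 0.0349, adjusted p = 0.810, edgeR) and an exact permutation p of 0.0519.

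Cidec, which fuses small droplets into large ones (ENSMUSG00000030278, chr6:113424634-113435760, minus strand), ranged from 335 through 564 to 1200 CPM in Ad-sham and from 236 through 317 to 559 CPM in Ad-FAM3A. All 7 Ad-FAM3A aortas were below the Ad-sham median and 4 were below the lowest control, while Ad-FAM3A1, Ad-FAM3A2 and Ad-FAM3A4 overlapped. The log2 fold change was -0.73 (SE 0.334, unadjusted p = 0.0448, adjusted p = 0.810, edgeR), with an exact permutation p of 0.0973. It was -0.46 (unadjusted p = 0.160, edgeR) without Ad-sham2.

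Fabp4 (ENSMUSG00000062515, chr3:10204088-10208576, minus strand) ranged from 1740 through 2926 to 5806 CPM in Ad-sham and from 1152 through 1805 to 3862 CPM in Ad-FAM3A. Ad-FAM3A2 was inside the upper part of the control range, and the other 6 were below the Ad-sham median. The log2 fold change of -0.75 (SE 0.362, adjusted p = 0.810, edgeR) was as large as those of Plin1 and Cidec, but its unadjusted p was 0.0568 and its exact permutation p 0.0798.

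Dgat2, an acyltransferase that makes the last step of triglyceride synthesis (ENSMUSG00000030747, chr7:99153658-99182719, minus strand), ranged from 263 through 796 to 1440 CPM in Ad-sham and from 234 through 499 to 1077 CPM in Ad-FAM3A. The groups overlapped over nearly their whole ranges, with only Ad-FAM3A3 below the lowest control. In the fit, the log2 fold change was -0.47 (SE 0.452, adjusted p = 0.846, edgeR), with an exact permutation p of 0.391, and the fitted value was -0.24 without Ad-sham2.

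Of the secreted factors, Cfd and Adipoq had the largest fitted differences, and neither had an unadjusted p under 0.05 with all 13 aortas and no replicate block. Cfd (ENSMUSG00000061780, chr10:79890853-79892655, plus strand) ranged from 1161 through 2223 to 5186 CPM in Ad-sham and from 811 through 1462 to 2879 CPM in Ad-FAM3A. Only Ad-FAM3A5 and Ad-FAM3A6 were below the lowest control. The log2 fold change was -0.68 (SE 0.380, adjusted p = 0.811, edgeR), with an exact permutation p of 0.140, and the fitted value was -0.41 without Ad-sham2.

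Adipoq, the insulin-sensitising hormone adiponectin (ENSMUSG00000022878, chr16:23146536-23158028, plus strand), ranged from 314 through 518 to 809 CPM in Ad-sham and from 185 through 328 to 553 CPM in Ad-FAM3A. Ad-FAM3A3 and Ad-FAM3A5 were below every control, and the remaining 5 overlapped. Adipoq had a log2 fold change of -0.56 (SE 0.313, adjusted p = 0.811, edgeR), with an exact permutation p of 0.145.

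Retn, which in mice encodes the adipocyte hormone resistin (ENSMUSG00000012705, chr8:3655770-3660110, plus strand), ranged from 88.3 through 151 to 371 CPM in Ad-sham and from 77.1 through 112 to 267 CPM in Ad-FAM3A. Only Ad-FAM3A5 was below the lowest control. The fitted difference was -0.37 in log2 fold change (SE 0.368, adjusted p = 0.852, edgeR), with an exact permutation p of 0.388, and it came to -0.05 without Ad-sham2, the aorta with the highest level, to -0.59 without Ad-FAM3A2 and to -0.24 without both Ad-FAM3A6 and Ad-FAM3A7.

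Lep stood apart in how unevenly it was distributed (ENSMUSG00000059201, chr6:29060220-29073877, plus strand). In Ad-sham it was at 59.0 CPM in Ad-sham1, 18.8 in Ad-sham2, 4.99 in Ad-sham3, 3.59 in Ad-sham4, 4.25 in Ad-sham5 and 1.03 in Ad-sham6. In Ad-FAM3A it was at 61.0 CPM in Ad-FAM3A1, 6.52 in Ad-FAM3A2, 3.25 in Ad-FAM3A3, 2.32 in Ad-FAM3A4, 1.25 in Ad-FAM3A5, 14.2 in Ad-FAM3A6 and 16.3 in Ad-FAM3A7. In each group a lone aorta, Ad-sham1 or Ad-FAM3A1, lay far above the rest, and the ranges of the groups nearly coincided. Over all 13 aortas the highest level was 59.4-fold the lowest. The counts behind these values ran from 16 to 1018, so counting error was small against the range. The log2 fold change was -0.03 (SE 0.959, adjusted p = 0.995, edgeR), the difference of mean log2 CPM was 0.08 with an exact permutation p of 0.939, and the 2 measures differ in sign. Without Ad-sham1 the fitted value was 1.20, and without Ad-FAM3A1 it was -1.05.

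**Figure D2:**
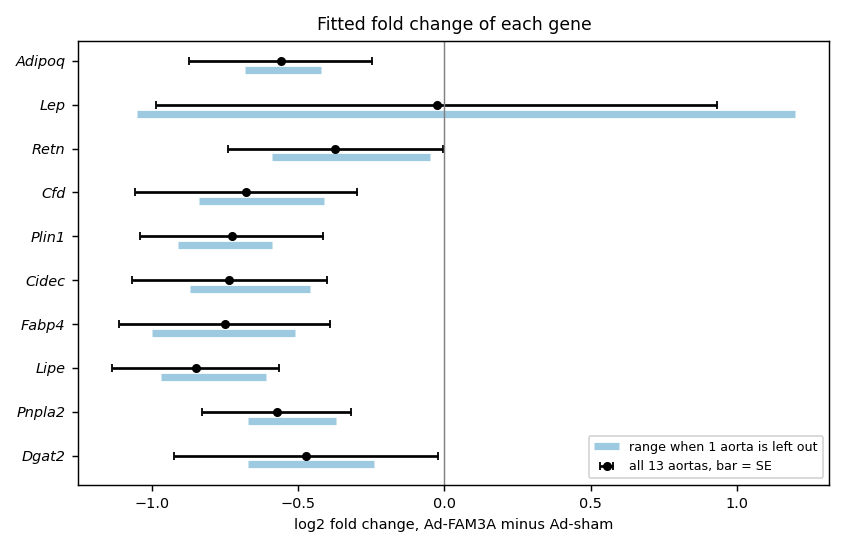
Fitted log2 fold change (horizontal axis, Ad-FAM3A minus Ad-sham) of each gene with its SE over 13 aortas in black, and in blue the range of the fitted value when each aorta is left out in turn. The ranges stay below 0 for the 9 genes other than Lep, whose range runs from -1.05 to 1.20.

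The authors' group means gave the same order of the groups for every member. Their mean FPKM was 2996 in Ad-sham and 1881 in Ad-FAM3A for Cfd, 87.0 and 48.5 for Lipe, and 4.59 and 4.44 for Lep. These means carry no error of their own.

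The members varied together from aorta to aorta, also within each virus group. In all 10 genes Ad-sham1, Ad-sham2 and Ad-sham3 were above Ad-sham4, Ad-sham5 and Ad-sham6, an order found in 11.6% of the genes tested. The reverse order was found in 11.5%. Summed fibroblast markers had the reverse order, at 2513 to 3365 CPM in Ad-sham1 to Ad-sham3 and 5588 to 7611 CPM in Ad-sham4 to Ad-sham6. Endothelial and lymphocyte sums were also reversed, while general adipocyte, brown adipocyte and liver sums had the order of the members. The other cell and tissue marker sums had neither order. In 6 genes (Adipoq, Plin1, Cidec, Fabp4, Lipe and Pnpla2) Ad-sham1 to Ad-sham3 were the highest of all 13 and Ad-FAM3A3 and Ad-FAM3A5 the lowest. Each of the 10 members was below its own mean in both Ad-FAM3A3, the aorta with the most sympathetic neuron transcripts, and Ad-FAM3A5. Without Ad-FAM3A3 the median log2 fold change of the members was -0.54. Within the Ad-FAM3A group, 8 members in Ad-FAM3A1 and 9 in Ad-FAM3A2 were above their means, against 0 to 2 in the other 5 aortas.

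**Figure D3:**
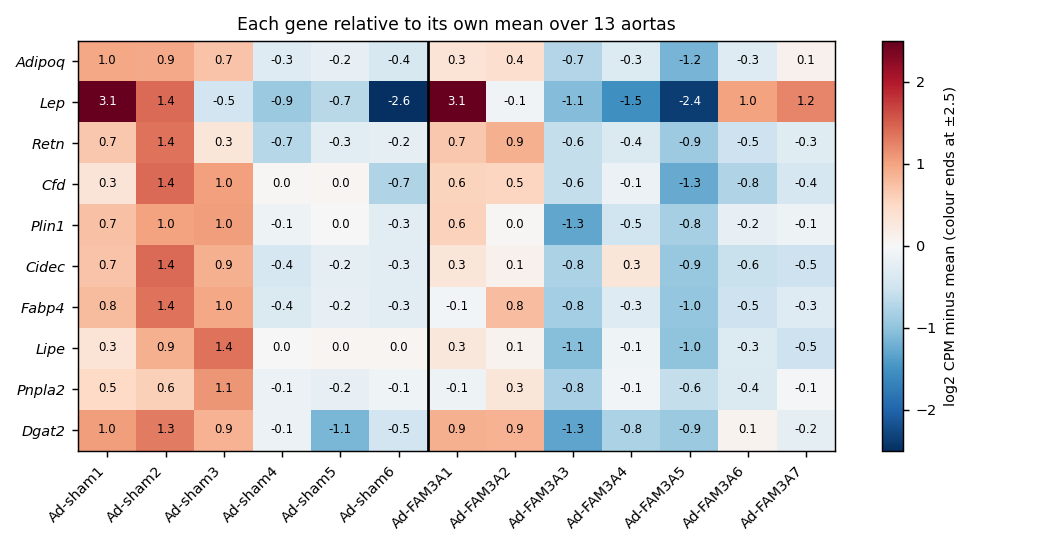
log2 CPM of each gene minus its mean over the 13 aortas (colour and printed value), with the groups split by the black line. Ad-sham1 to Ad-sham3 are above the mean for all genes but Lep in Ad-sham3, Ad-FAM3A3 and Ad-FAM3A5 are below it throughout, and Lep has the widest range.

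After the group means were subtracted, Pearson's r between members over the 13 aortas had a median of 0.82 across the 45 pairs (Spearman's rho 0.82). Without Lep the range was 0.71 to 0.92. These pairs share libraries and tissue, so no p is given. Adipoq was most like the mean of the other members (r = 0.96) and Lep least (r = 0.67), with Pnpla2 at 0.85 and Lipe at 0.86. Lep was nearest to Adipoq (r = 0.80) and farthest from Pnpla2 (r = 0.43). The SD of Lep within groups was 1.93 on the log2 scale, above 97.7% of the genes tested, and that of Dgat2 was 0.918, above 86.1%.

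The ratio to Adipoq within the same aorta describes how the mix of adipocyte transcripts varied. For Fabp4 the log2 ratio was 2.54 ± 0.218 (SD, n = 6) in Ad-sham and 2.37 ± 0.289 (SD, n = 7) in Ad-FAM3A. For Pnpla2 it was 1.41 ± 0.349 and 1.41 ± 0.326, and for Lipe -0.06 ± 0.450 and -0.36 ± 0.305. The difference between group means of these log2 ratios, Ad-FAM3A minus Ad-sham, lay between -0.30 (Lipe) and 0.18 (Retn) for the 8 genes other than Lep. The Lep ratio was -6.24 ± 1.53 in Ad-sham and -5.63 ± 1.54 in Ad-FAM3A, with 1 Lep count for every 8.51 Adipoq counts in Ad-FAM3A1 and 1 for every 305 in Ad-sham6. Lep was thus high relative to Adipoq in Ad-FAM3A1, Ad-sham1, Ad-FAM3A6 and Ad-FAM3A7, and only the first 2 of these were rich in the other members.

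**Figure D4:**
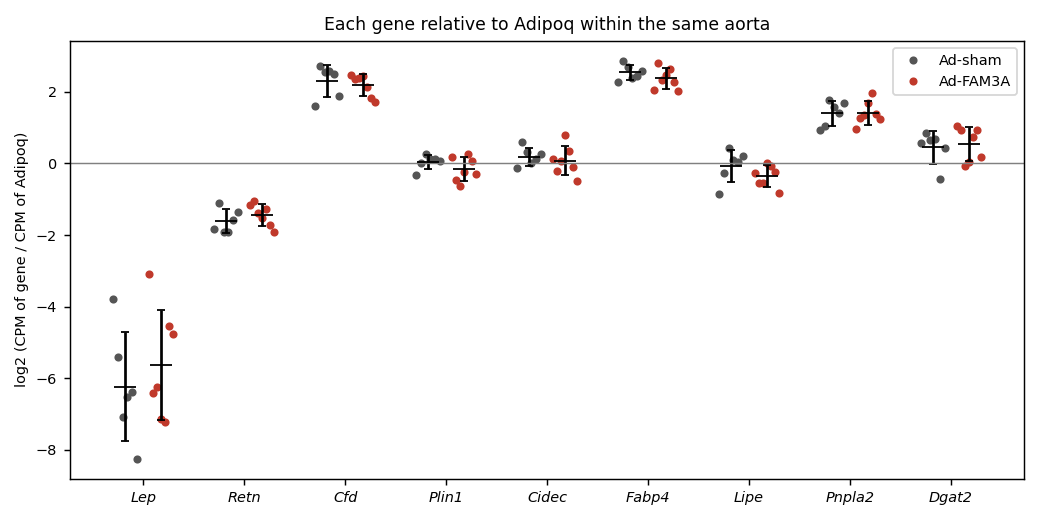
log2 ratio of the CPM of each gene to the CPM of Adipoq in the same aorta (points), with the group mean and SD (bars), for 6 Ad-sham and 7 Ad-FAM3A aortas. The Lep ratios spread over 5.17 log2 units and those of the other 8 genes over 0.84 to 1.49.

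The genes outside the members with the most similar pattern were found by correlation. Over the 13 aortas, group means subtracted, the 4 with the highest r with the mean of the members were Mccc2, a mitochondrial carboxylase of leucine breakdown (0.981), Pex11a, which promotes peroxisome division (0.981), Pla2g12a, a secreted phospholipase (0.971), and Lias, the lipoic acid synthase (0.964). Of the 15801 other genes, 3.98% had an r above 0.8 and the median was -0.069. Pex11a was at 37.7 ± 14.7 CPM in Ad-sham and 21.6 ± 6.94 CPM in Ad-FAM3A (log2 fold change -0.80, SE 0.27, adjusted p = 0.810, edgeR). The genes nearest to Lep were Abcd2, a peroxisomal fatty acid transporter (0.927), Aldh3b2 (0.925) and Fsd2 (0.913). Those nearest to Retn were Ndufa12 (0.957) and Timm10 (0.941), which belong to mitochondrial complex I and protein import, and Pdzd11 (0.936).

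Other genes of lipolysis and its control, a list that holds both activators and inhibitors, had values like those of the members. Of 13 further genes of lipolysis and its control, all 13 were fitted below 0, with a median of -0.64, and 8 had an unadjusted p under 0.05, which 2.93% of all genes tested had in this direction. The count of 8 was 4 without Ad-sham1 or Ad-FAM3A3 and 5 without Ad-sham3, and 12 of the 13 genes were below 0 without Ad-sham2, Ad-FAM3A6 or Ad-FAM3A7. Adrb3, the β3-adrenergic receptor through which catecholamines start lipolysis, was at 200 ± 72.9 CPM in Ad-sham and 109 ± 21.7 CPM in Ad-FAM3A, with 5 of 7 aortas below every control (log2 fold change -0.87, SE 0.22, unadjusted p = 0.00145, adjusted p = 0.810, edgeR). Abhd5, the co-activator of ATGL, was at 104 ± 40.9 and 63.3 ± 9.60 CPM, a log2 fold change of -0.72 (SE 0.21). Mgll, the monoacylglycerol lipase of the final step, was at 500 ± 129 and 321 ± 71.9 CPM, with 6 of 7 aortas below every control (log2 fold change -0.64, SE 0.20). Prkar2b, a regulatory subunit of protein kinase A, was at 506 ± 215 and 329 ± 74.2 CPM, a log2 fold change of -0.62 (SE 0.26). None passed an adjusted p of 0.05.

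Values in droplet assembly and triglyceride synthesis were also mostly negative. Of 8 other droplet coat and assembly genes tested, 7 were below 0 (median -0.42) and 2 had an unadjusted p under 0.05, Bscl2, the seipin gene (log2 fold change -0.45, SE 0.20), and Plin2 (-0.57, SE 0.26). That count of 2 was 0 with limma-voom and without any one of Ad-sham1 to Ad-sham3 or Ad-FAM3A3 to Ad-FAM3A7, 1 without Ad-FAM3A1 and 4 without Ad-sham5, and the median was -0.26 without Ad-sham3 and -0.27 without Ad-sham2. All 10 triglyceride synthesis genes were below 0 (median -0.52), against 9 when scaled by library totals and 8 to 10 when aortas were left out. In that list 5 genes had an unadjusted p under 0.05. The count was 2 without Ad-sham2, Ad-sham3, Ad-FAM3A3 or Ad-FAM3A7, 3 without Ad-sham1, Ad-FAM3A4, Ad-FAM3A5 or Ad-FAM3A6, and 1 without both Ad-FAM3A6 and Ad-FAM3A7. Among the 5 were Gpd1, which makes glycerol 3-phosphate, at 1744 ± 1449 and 755 ± 319 CPM, Gpam, the mitochondrial acyltransferase, at 153 ± 65.0 and 89.9 ± 24.3 CPM, and Pck1, at 1654 ± 628 and 959 ± 430 CPM in Ad-sham and Ad-FAM3A. Of 9 fatty acid uptake and binding genes, 7 were below 0 (median -0.39), and 3 had an unadjusted p under 0.05. Slc27a1 and Acsl1, which carry and activate fatty acids, had log2 fold changes of -0.90 (SE 0.25) and -0.80 (SE 0.22). Lpl, the lipase that frees fatty acids from lipoproteins, was at 2186 ± 749 and 1558 ± 241 CPM (-0.49, SE 0.24, unadjusted p = 0.0586).

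Transcription factors of adipocytes and other secreted factors were also mostly below 0, and adipokine receptors were not. Of 12 adipogenic factors, 9 were below 0 (median -0.40) and 2, Cebpa and Ebf2, had an unadjusted p under 0.05, a count that was 1 without Ad-sham3 or Ad-FAM3A3, 4 without Ad-FAM3A1 and 5 without Ad-sham5. Cebpa, which binds C/EBP motifs, was at 413 ± 121 CPM in Ad-sham and 239 ± 101 CPM in Ad-FAM3A (log2 fold change -0.79, SE 0.30). Of 16 other secreted factors tested, 13 were below 0 (median -0.34), 2 had an unadjusted p under 0.05 and Serpina12 was too low to test. The count of 2 was 0 without Ad-sham2 or Ad-FAM3A6 and 1 without Ad-sham1, Ad-sham3, Ad-sham5, Ad-FAM3A4, Ad-FAM3A5 or Ad-FAM3A7, and the median was -0.12 without Ad-sham2 and -0.22 without Ad-FAM3A6. Of 6 adipokine receptors, 5 were above 0 (median 0.22, and 0.11 without Ad-sham1 or Ad-sham3), while Adipor2 was at 487 ± 220 and 307 ± 47.4 CPM (-0.67, SE 0.25, unadjusted p = 0.0181, edgeR). Adipor2 was the only receptor at an unadjusted p under 0.05, and without Ad-sham3 or with the replicate block the count was 0.

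**Figure D5:**
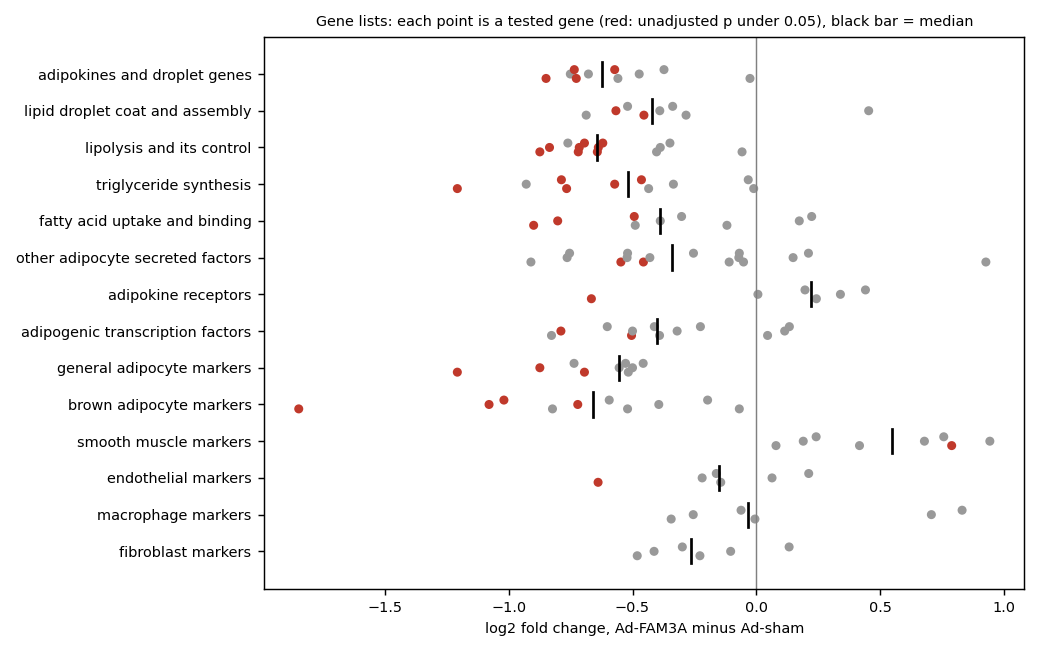
log2 fold change (horizontal axis, Ad-FAM3A minus Ad-sham) of each tested gene in 14 lists, in red where the unadjusted p was under 0.05, with the list median as a black bar. Lists of adipocyte and lipid genes lie mostly below 0 and, with all 13 aortas in the fit, the 8 smooth muscle markers lie above 0, and no gene passed an adjusted p of 0.05.

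Markers of the cells in the samples were read beside the members, and none passed an adjusted p of 0.05. All 9 general adipocyte markers, of which Adrb3, Aqp7, Gpd1 and Pparg also stand in the lists above, were below 0 (median -0.55), and their summed level was 983 to 5500 CPM in Ad-sham and 751 to 2080 CPM in Ad-FAM3A. All 10 brown adipocyte markers, with Cidea also counted as a droplet gene, were below 0 (median -0.66). The median was -0.35 without Ad-sham3 and -1.02 without Ad-FAM3A2, and 8 of the 10 were below 0 without Ad-sham2. Their sum was 734 to 4320 CPM in Ad-sham and 753 to 3280 CPM in Ad-FAM3A, with Ad-sham3, Ad-sham2, Ad-FAM3A2 and Ad-sham1 highest, and 1 of the 10, Cpt1b, had 0 counts in at least 1 aorta. Ucp1, the uncoupling protein of brown fat, was at 279 to 2190 CPM in Ad-sham and 230 to 1050 CPM in Ad-FAM3A (log2 fold change -1.02, SE 0.45, adjusted p = 0.810, edgeR). The 8 smooth muscle markers were all above 0 with 13 aortas (median 0.55), but 3 of them were below 0 without Ad-FAM3A4 (median 0.37), 2 without Ad-sham1 and 1 without Ad-sham3. Only Tagln had an unadjusted p under 0.05, and the count ran from 0 to 4 when aortas were left out. Tagln was at 18.7 ± 6.08 CPM in Ad-sham and 32.2 ± 15.8 CPM in Ad-FAM3A. Acta2 was at 4312 ± 2041 and 5755 ± 2918 CPM, and why Tagln was so much lower was not tested. The sum of the 8 smooth muscle markers was 2940 to 12800 CPM in Ad-sham and 2230 to 18200 CPM in Ad-FAM3A. Ad-sham2 had the highest smooth muscle sum among the controls and also the highest summed level of the members. Ad-sham3 and Ad-sham1, the next highest controls in the members, had the lowest smooth muscle sums of the controls, at 5195 and 2940 CPM. Of 4 mesothelial markers tested, all were below 0 (median -1.97). Without Ad-sham3 the median was -0.35 with 3 of 4 below 0, it was -0.26 with limma-voom, and with the replicate block it was -0.33 with 2 of 4 below 0. The sum over all 5 listed was 142 CPM in Ad-sham3, 42.6 in Ad-sham1 and 27.0 in Ad-FAM3A1, with Msln and Upk1b at 0 in some aortas. Ad-sham1 and Ad-FAM3A1 were also the aortas with the most Lep, and Ad-sham3 was not. Medians of the log2 fold change in further lists were -0.15 for 6 endothelial, -0.03 for 6 macrophage, -0.26 for 6 fibroblast, 1.86 for 6 lymphocyte, 0.39 for 6 skeletal muscle, -0.64 for 6 sympathetic neuron, 1.53 for 6 liver, -0.81 for 4 cardiac and -0.75 for 3 kidney markers tested. The endothelial and macrophage medians stayed between -0.22 and 0.11 over the alternatives, while single genes lay farther from 0. The endothelial VEGF receptor gene Kdr was at 151 ± 25.1 CPM in Ad-sham and 96.8 ± 30.7 CPM in Ad-FAM3A, with 6 of 7 aortas below every control (log2 fold change -0.64, SE 0.20, unadjusted p = 0.00685, adjusted p = 0.810, edgeR). Of the 6 macrophage genes, 4 were below 0, the lowest at -0.34, and 2 were above. Those above were Lyz2 and Cd68, with log2 fold changes of 0.83 (SE 0.44) and 0.71 (SE 0.48) and unadjusted p = 0.0789 and 0.163 in edgeR. The lymphocyte median was 0.29 without Ad-FAM3A6 and -0.84 without both Ad-FAM3A6 and Ad-FAM3A7, and the cardiac median was 0.84 without Ad-sham1 and -1.90 without Ad-FAM3A6. When single aortas were left out, the medians ran from 0.06 (without Ad-FAM3A2) to 1.45 (without Ad-sham6) for skeletal muscle, from -1.53 (without Ad-FAM3A3) to -0.28 (without Ad-sham5) for sympathetic neuron, from 0.86 (without Ad-FAM3A1) to 2.35 (without Ad-sham6) for liver, from -2.45 (without Ad-FAM3A3) to -0.02 (without Ad-sham6) for kidney and from -0.40 (without Ad-FAM3A3) to -0.12 (without Ad-sham5) for fibroblast markers. Other fits moved several of these medians farther. With the replicate block they were 0.04 for lymphocyte, 0.11 for cardiac, -0.08 for skeletal muscle, -0.09 for sympathetic neuron and -2.97 for kidney markers. With limma-voom they were 0.62 for lymphocyte, 0.00 for cardiac, 0.21 for skeletal muscle, -0.04 for sympathetic neuron, 0.74 for liver and -3.14 for kidney markers. With a minimum of 10 counts in every aorta 1 liver marker was left, Cyp2e1, at -0.51, which was also the only liver marker below 0 in the main fit. Cyp2e1 was at 609 to 1350 CPM in Ad-sham and 388 to 1080 CPM in Ad-FAM3A. Alb was at 0.198 to 33.4 and 0.367 to 319 CPM, so the Cyp2e1 value is not a measure of the other liver markers. The part of tissue makeup in the differences between the virus groups was not tested.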

How the data were processed

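RNA of aortic tissue from 13 mice (6 Ad-sham, 7 Ad-FAM3A) was sequenced in bulk. The authors aligned reads to GRCm38 with Hisat2 and deposited whole-number counts per gene from FeatureCounts, which were the basis of all tests, and group means in FPKM, printed as the authors' means. The annotation release, strand setting and treatment of shared reads were not given in the sources used here, and the sample records and the methods name different RNA and library kits.

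Counts were fitted over all 15811 genes kept by filterByExpr with edgeR 4.0.16 (TMM scaling, quasi-likelihood test, Ad-FAM3A against Ad-sham, Benjamini-Hochberg adjustment). Mean log2 CPM (prior count 2) was compared by a two-sided exact permutation test over all 1716 splits of the aortas, unadjusted, whose smallest p is 0.00117. Each library is a separate aorta. Motifs were searched in RefSeq promoter windows. On simulated counts for 15555 genes with 200 changed by 2 log2 units up or down, the fit called 81.5% of these and 7 unchanged genes. Those changes were larger than any fitted for a member, so 81.5% does not apply to differences of the members' size. Alternatives used DESeq2 1.42.0, limma 3.58.1, other scalings and filters, a replicate block, and each aorta left out. The members and lists were chosen with earlier results of these data known. Named were every member, Fam3a, from each list up to 4 genes by smallest unadjusted p and highest CPM, and genes most correlated with the members, Lep or Retn. Some genes that this rule picks are not reported here.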

Additional observations from a re-analysis of the deposited data

Results flagged for a closer look

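The ratio of Dgat2 to Adipoq in Ad-sham5 lay far from the other controls, at -0.44 on the log2 scale against 0.42 to 0.86 in the other 5 Ad-sham aortas. The gap to its neighbour was 0.663 of the range of the group. Of 38 groups of values examined (each member and each ratio to Adipoq in each virus group), this was the 1 value found, and chance would give about 1.9.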

How the results depend on the processing

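Scaling, filter, test and left-out aortas changed no member's adjusted call. Over 23 alternatives the log2 fold change stayed below 0 in 9 of the 10 members, and the median of the members lay between -0.80 (without Ad-FAM3A1) and -0.44 (without Ad-sham2). Lep changed sign, to 0.08 with library totals, 0.18 with limma-voom and between -1.05 and 1.20 when aortas were left out, and its difference of mean log2 CPM ran from -0.44 to 0.70. The cause was not tested. The number of members at the threshold was 0 and became 4 with an unadjusted p. That count of 4 was 2 with library totals, 1 without Ad-FAM3A6 and Ad-FAM3A7 (chosen after seeing the data), and 1 to 6 when aortas were left out. DESeq2 called 10 genes in all, none of them members. The smallest adjusted p of any member in any alternative was 0.367, for Lipe.

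Replicate numbers 1 to 6 are shared by the groups, but nothing says that they mark a litter, batch or day. The correlation of deviations between same-numbered aortas ran from -0.327 to 0.448, and 1 of 6 Ad-sham aortas correlated best with its own number. With the replicate block, 0 members passed an adjusted p of 0.05, 3 an unadjusted p of 0.05 (Lipe, Adipoq and Plin1, of which Adipoq was gained while Pnpla2 and Cidec were lost) and the median was -0.60, while the genes at an unadjusted p went from 934 to 620.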
